A study of Mus musculus with 12 samples.

Results

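The livers compared here came from wild-type C57BL/6 female mice, and the genes described are 45 enzymes of amino acid breakdown and of the urea cycle, chosen by name. Each of the 45 symbols occurred once in the deposited expression table, out of 24033 symbols, and all 45 were among the 12965 genes with a mean log2 level of at least 4, which were the genes tested. The 12 RNA sequencing libraries fall into 4 groups of 3. Intact females given PBS (vehicle) or dexamethasone, a synthetic glucocorticoid, make up 2 groups, and ovariectomized females, which lack the main source of oestrogen, given the same vehicle or dexamethasone make up the others. The dose was 1 mg/kg and livers were taken 6 h after it. The labels do not say whether a library is 1 animal or a pool, nor that replicates came from different mice. The p-values therefore reflect only how far these libraries spread, which may be technical.

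Amino acids that are not needed for protein are broken down mainly in the liver. The routes remove or transfer the amino group and end in carbon skeletons that feed gluconeogenesis, ketone bodies or the citric acid cycle. The nitrogen is disposed of as urea, in a cycle that begins in the mitochondrion of hepatocytes and is densest around the portal vein. Glucocorticoids and glucagon are known to raise several of these enzymes in fasting, and tyrosine aminotransferase and tryptophan dioxygenase are textbook examples.

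All levels below are log2 expression values as the authors deposited them, and differences are log2 differences ± SE from limma. The threshold for a call was an adjusted p of 0.05 (Benjamini-Hochberg) over all 12965 genes. Values are not scaled to gene length, so levels are compared between libraries and not between genes. Library medians lay between 8.82 and 8.86. Of 8 hepatocyte markers, 7 were tested, and their summed level lay between 22.04 and 22.38 in every library. Defining markers of kidney (4 of 4) and of pancreas (4 of 5) were listed at 0 or below in all libraries. Kidney is another tissue that holds some of these enzymes. In bulk tissue, fewer cells of a type and less RNA per cell cannot be told apart.

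Replicate 3 of the ovariectomized vehicle group stood apart for these enzymes. It was the highest of the 3 libraries of its group for 43 of the 45 (95.6%), against 35.6% of all genes tested. Replicate 2 was the lowest for 30 of them (66.7%), against 34% of all genes. For the 45 enzymes as a set, counts without replicate 3 are given beside those with it where they differ. Within the other groups, no library was the highest for more than 24 of the 45.

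Dexamethasone raised more of these enzymes in ovariectomized than in intact females, and lowered fewer. In intact females 13 of 45 rose (28.9%, against 22.8% of all genes tested that rose) and 10 fell (22.2%, against 25.9%). In ovariectomized females 24 rose (53.3%, against 21.3%) and 2 fell (4.44%, against 19.4%). The median difference over the 45 was 0.06 in intact and 0.27 in ovariectomized females, where the median over all genes tested was 0 in each. Without replicate 3 of ovariectomized vehicle, 17 rose and 10 fell in intact females, and 27 rose and 1 fell in ovariectomized females. Under quantile normalization 19 rose and 6 fell in intact females, and 24 rose and 4 fell in ovariectomized females. A test of the difference between the responses, gene by gene, follows the account of the routes.

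The same 13 enzymes that rose in intact females rose in ovariectomized females: Tat, Hpd, Tdo2, Acmsd, Sds, Sdsl, Aass, Got1, Bckdhb, Cps1, Ass1, Asl and Arg1. A further 9 passed in ovariectomized females and not in intact females, namely Gldc, Hal, Prodh, Gpt, Ivd, Mccc2, Mat1a, Gnmt and Nags. Kmo and Mccc1 fell in intact females and rose in ovariectomized females. Amt and Amdhd1 fell in both. Afmid, Aldh7a1, Aldh4a1, Glud1, Hibch and Otc fell in intact females and did not pass in ovariectomized females. The remaining 13 passed in neither comparison. The share of all genes tested with each of these joint patterns was not computed, so the lists describe the members only. A pass in 1 state alone is no test of a difference. For Hal, Prodh, Gpt, Gnmt, Afmid and Hibch the difference between the responses did not pass (limma adjusted p = 0.0572 to 0.449).

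**Figure D1:**
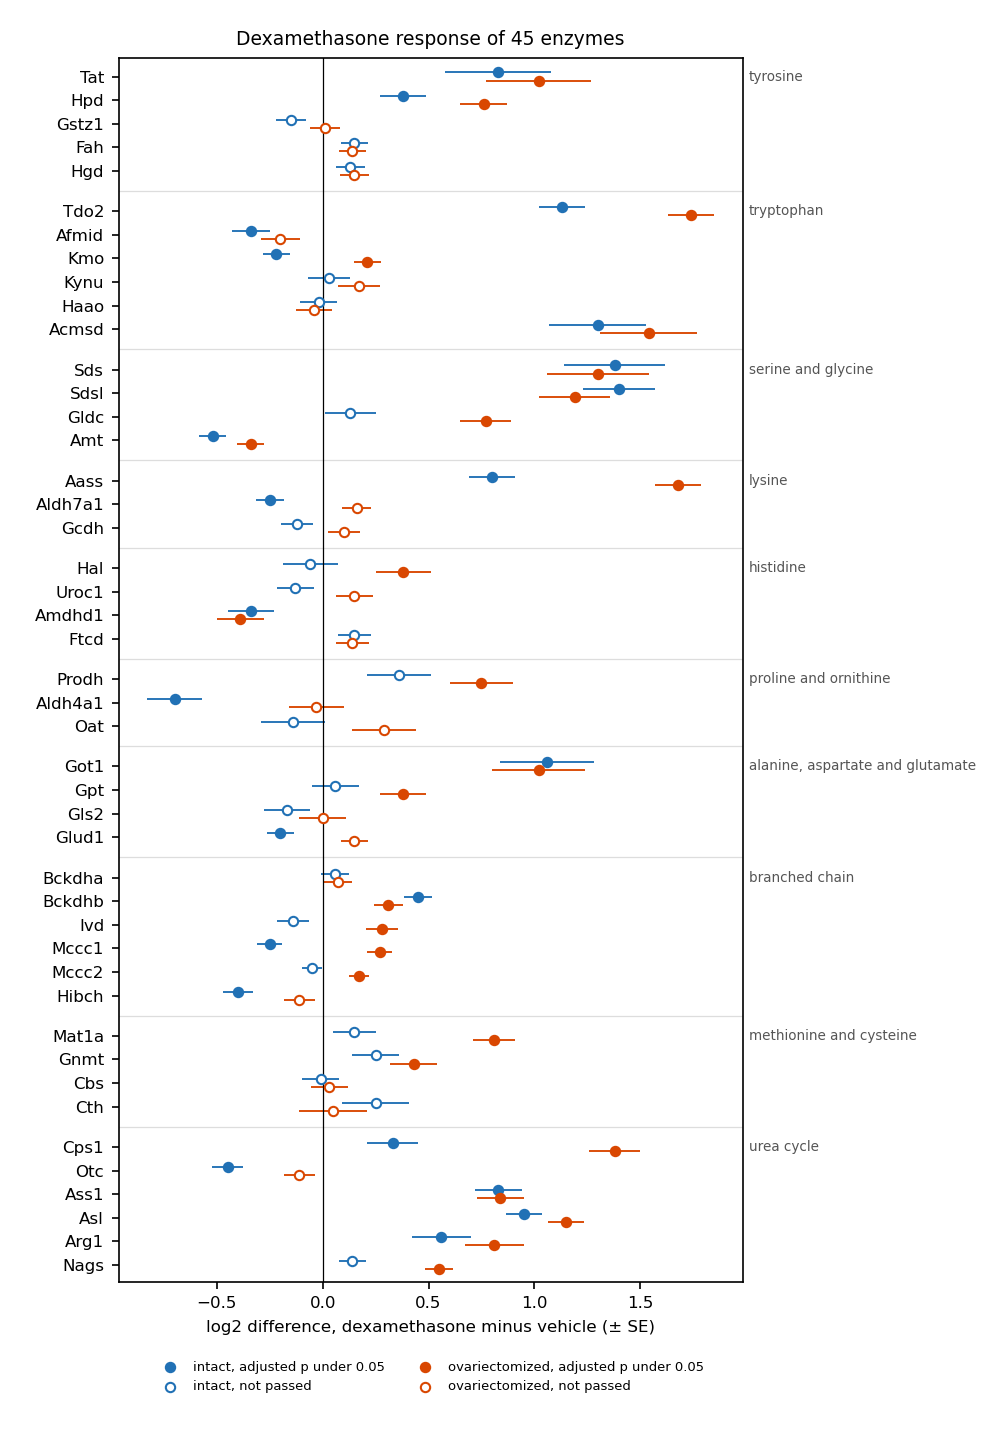
Log2 difference between dexamethasone and vehicle libraries (x axis, ± SE from limma) for each of the 45 enzymes (y axis, grouped by route), in intact (blue) and ovariectomized females (orange). Filled points passed at adjusted p under 0.05: 13 rose and 10 fell in intact females, and 24 rose and 2 fell in ovariectomized females.

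The urea cycle was among the routes with the most rises. Of its 6 enzymes 4 rose and 1 fell in intact females, and 5 rose in ovariectomized females, with median differences of 0.45 and 0.82. Carbamoyl phosphate synthetase, encoded by Cps1 (Entrez 227231), fixes free ammonia in the mitochondrion as the entry step of the cycle. Its level was 17.14, 16.91 and 16.9 in intact vehicle libraries and 17.23, 17.29 and 17.44 with dexamethasone. Ovariectomized libraries held 16.26, 16.24 and 16.6 with vehicle and 17.81, 17.73 and 17.68 with dexamethasone. The 3 ovariectomized vehicle libraries were the lowest of all 12 and the 3 ovariectomized dexamethasone libraries the highest. Cps1 rose by 1.38 ± 0.12 in ovariectomized females (2.6-fold, limma adjusted p = 1.32e-05). In intact females it rose by 0.33 ± 0.12 (limma adjusted p = 0.0385), a call that each omission of an intact library other than vehicle replicate 1 ended (adjusted p = 0.0504 to 0.119), as did omission of ovariectomized dexamethasone replicate 2 (0.0512), no filter (0.0742), a fit of only the libraries compared (0.07) and quantile normalization (0.0689).

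N-acetylglutamate synthase, encoded by Nags, makes the activator without which carbamoyl phosphate synthetase does not work. Its level was 11.18, 11.4 and 11.39 in intact vehicle, 11.53, 11.47 and 11.4 in intact dexamethasone, 11.06, 11.05 and 11.08 in ovariectomized vehicle and 11.66, 11.53 and 11.66 in ovariectomized dexamethasone libraries. The ovariectomized vehicle libraries lay below all others. Nags rose by 0.55 ± 0.065 in ovariectomized females (limma adjusted p = 9.4e-05), and the difference of 0.14 ± 0.065 in intact females did not pass (adjusted p = 0.087).

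Ornithine transcarbamylase (Otc), which joins carbamoyl phosphate to ornithine, was the member of the cycle that fell. It went from 14.23, 14.18 and 14.27 to 13.77, 13.89 and 13.66 in intact females, with no overlap, a fall of 0.45 ± 0.072 (limma adjusted p = 0.000374). In ovariectomized females it was at 14.05, 14.05 and 14.2 with vehicle and 13.91, 13.97 and 14.08 with dexamethasone, and the difference of -0.11 ± 0.072 did not pass (adjusted p = 0.226).

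The cytosolic steps rose in both gonadal states. Argininosuccinate synthetase (Ass1) was at 12.4, 12.5 and 12.44 in intact vehicle and 13.14, 13.26 and 13.43 in intact dexamethasone libraries. Ovariectomized libraries held 12.29, 12.11 and 12.63 with vehicle and 13.26, 13.15 and 13.14 with dexamethasone. The rises were 0.83 ± 0.11 and 0.84 ± 0.11 (limma adjusted p = 0.000136 and 0.000192). Ass1 is uncertain, because 38.6% of its 50-base words also occur in other genes, Gm5424 among them, and some of its reads may not be counted for it.

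Argininosuccinate lyase (Asl), which releases arginine and fumarate, had libraries at 14.32, 14.36 and 14.15 in intact vehicle, 15.25, 15.22 and 15.2 in intact dexamethasone, 14.13, 14.16 and 14.42 in ovariectomized vehicle and 15.45, 15.35 and 15.36 in ovariectomized dexamethasone. Every dexamethasone library lay above every vehicle library, with rises of 0.95 ± 0.084 (1.93-fold) and 1.15 ± 0.084 (2.22-fold), limma adjusted p = 9.64e-06 and 3.97e-06. Arginase (Arg1), which splits arginine into urea and ornithine, was at 15.5, 15.19 and 14.97 (vehicle) and 15.71, 15.79 and 15.84 (dexamethasone) in intact females. It was at 15.07, 15.1 and 15.52 (vehicle) and 15.99, 16.07 and 16.04 (dexamethasone) in ovariectomized females. Its vehicle libraries were widely spread in both states, and the rises were 0.56 ± 0.14 and 0.81 ± 0.14 (limma adjusted p = 0.00584 and 0.000907).

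**Figure D2:**
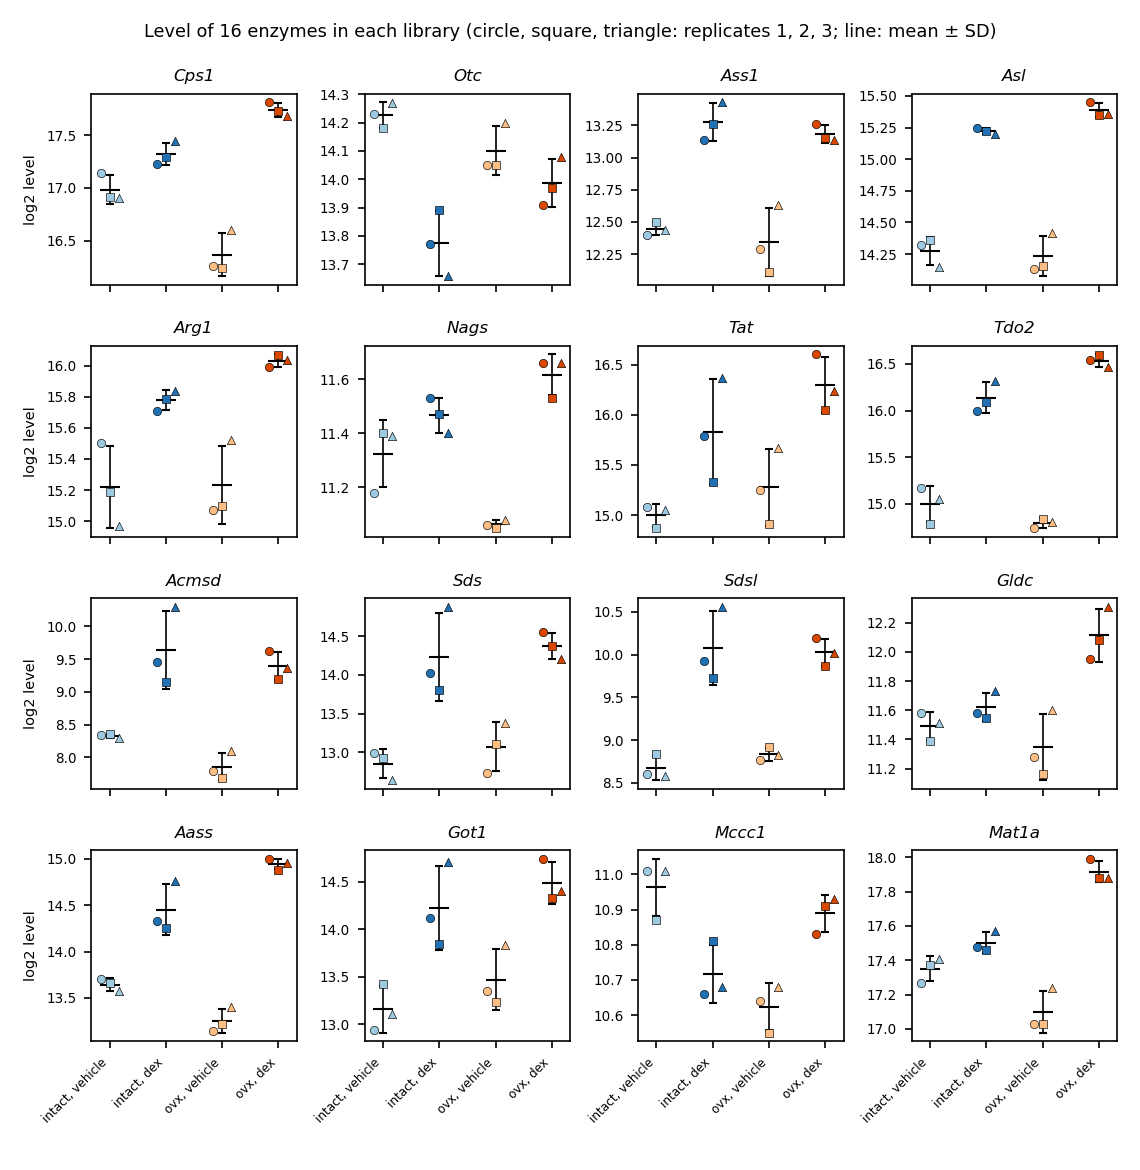
Log2 level (y axis) of the enzymes named above each panel in the 12 libraries, by group (x axis; ovx, ovariectomized; dex, dexamethasone). Circles, squares and triangles are replicates 1, 2 and 3, and lines are mean ± SD of 3 libraries. Asl libraries with dexamethasone lie above all vehicle libraries, whereas Otc is lowest in intact females given dexamethasone and Nags lowest in ovariectomized females given vehicle.

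In the tyrosine route the first 2 enzymes rose and the later 3 did not pass. Tyrosine aminotransferase (Tat, Entrez 234724) removes the amino group in the first and rate-limiting step. Its level was 15.08, 14.87 and 15.05 in intact vehicle and 15.79, 15.33 and 16.37 in intact dexamethasone libraries. With ovariectomy it was 15.25, 14.91 and 15.67 with vehicle and 16.6, 16.05 and 16.24 with dexamethasone. The groups did not overlap in either state, but the intact dexamethasone libraries spread over 1 log2 unit. Tat rose by 0.83 ± 0.25 in intact and 1.02 ± 0.25 in ovariectomized females (limma adjusted p = 0.0157 and 0.00662). The call in intact females was lost without intact vehicle replicate 2 (adjusted p = 0.0501) or intact dexamethasone replicate 3 (0.0564).

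Hydroxyphenylpyruvate dioxygenase (Hpd), the second enzyme of the route, was at 16.15, 16.42 and 16.24 (vehicle) and 16.51, 16.79 and 16.63 (dexamethasone) in intact libraries. Ovariectomized females had 16.11, 16.12 and 16.28 (vehicle) and 16.98, 17.02 and 16.79 (dexamethasone). It rose by 0.38 ± 0.11 and 0.76 ± 0.11 (limma adjusted p = 0.0132 and 0.000301), the former not without intact vehicle replicate 1 (adjusted p = 0.0569) or after removal of the trend on transcript length and GC content (0.0555). Homogentisate dioxygenase (Hgd), Gstz1, the maleylacetoacetate isomerase, and Fah, the fumarylacetoacetate hydrolase of the last step, had differences of -0.15 to 0.15 in both states and passed in neither.

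In the tryptophan route the entry enzyme and a late branch-point enzyme rose, and the steps between changed by less. Tryptophan dioxygenase (Tdo2, Entrez 56720) opens the indole ring. Its level was 15.17, 14.79 and 15.05 in intact vehicle and 16, 16.09 and 16.32 in intact dexamethasone libraries. Ovariectomized libraries were at 14.74, 14.84 and 14.81 with vehicle and 16.54, 16.6 and 16.47 with dexamethasone. The vehicle and dexamethasone libraries did not overlap, and the ovariectomized dexamethasone libraries were the highest. The rises were 2.19-fold and 3.34-fold (limma adjusted p = 1.3e-05 and 1.2e-06).

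Acmsd, the decarboxylase that diverts the route away from NAD synthesis, was at 8.34, 8.36 and 8.3 (vehicle) and 9.45, 9.15 and 10.3 (dexamethasone) in intact females. It was at 7.79, 7.69 and 8.09 (vehicle) and 9.62, 9.2 and 9.36 (dexamethasone) in ovariectomized females. Acmsd rose by 1.30 ± 0.23 and 1.54 ± 0.23 (limma adjusted p = 0.000762 and 0.000392), and intact dexamethasone replicate 3 was the highest library of all. Kynurenine monooxygenase (Kmo) moved the opposite way in the 2 states, from 13.14, 12.93 and 13.04 to 12.81, 12.79 and 12.84 in intact and from 12.73, 12.72 and 12.86 to 12.89, 13.02 and 13.04 in ovariectomized females. The differences were -0.22 ± 0.064 and 0.21 ± 0.064 (limma adjusted p = 0.0138 and 0.0197). Neither was held throughout: the fall ended under quantile normalization (-0.05, adjusted p = 0.47), after removal of that trend (0.0658) and without intact vehicle replicate 1 (0.0602), and the rise ended without ovariectomized vehicle replicate 1 or 2 or ovariectomized dexamethasone replicate 2 or 3 (0.059 to 0.0765). Of the others, Afmid, which hydrolyses formylkynurenine, fell by 0.34 ± 0.091 in intact females (limma adjusted p = 0.00836). Its counts are uncertain, because 40.3% of its 50-base words also occur in other genes, Gm20708 among them. Kynureninase (Kynu) and Haao, which makes the precursor of quinolinate, had differences of -0.04 to 0.17 and passed in neither state.

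Both serine dehydratase genes rose, and the glycine cleavage system was divided. Sds (Entrez 231691) turns serine into pyruvate, and Sdsl encodes a related enzyme. Sds went from 12.99, 12.93 and 12.64 to 14.02, 13.81 and 14.88 in intact females and from 12.74, 13.11 and 13.38 to 14.55, 14.37 and 14.21 in ovariectomized females. Sdsl went from 8.6, 8.84 and 8.58 to 9.93, 9.73 and 10.56 and from 8.77, 8.92 and 8.82 to 10.19, 9.87 and 10.02. For both genes every dexamethasone library was above every vehicle library. Rises of Sds were 1.38 ± 0.24 and 1.30 ± 0.24, and those of Sdsl 1.40 ± 0.17 and 1.19 ± 0.17 (limma adjusted p = 6.85e-05 to 0.00133).

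Gldc encodes the glycine-decarboxylating subunit of the cleavage system. It was at 11.58, 11.39 and 11.51 (vehicle) and 11.58, 11.55 and 11.73 (dexamethasone) in intact libraries, which overlapped, and at 11.28, 11.16 and 11.6 (vehicle) and 11.95, 12.08 and 12.31 (dexamethasone) in ovariectomized ones, which did not. Gldc rose by 0.77 ± 0.12 in ovariectomized females (limma adjusted p = 0.000403), and the difference of 0.13 ± 0.12 in intact females did not pass (adjusted p = 0.387). Amt, the aminomethyltransferase subunit of the same system, fell by 0.52 ± 0.064 in intact and 0.34 ± 0.064 in ovariectomized females (limma adjusted p = 7.78e-05 and 0.00157).

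Lysine breakdown showed a rise at its first enzyme. Aass (Entrez 30956) is the bifunctional aminoadipate semialdehyde synthase that starts the mitochondrial route. Its level was 13.7, 13.66 and 13.57 in intact vehicle and 14.33, 14.25 and 14.76 in intact dexamethasone libraries. It was 13.15, 13.22 and 13.4 (vehicle) and 14.99, 14.88 and 14.95 (dexamethasone) in ovariectomized libraries. The 4 groups did not overlap with one another, with ovariectomized vehicle lowest and ovariectomized dexamethasone highest. Aass rose by 0.80 ± 0.11 (1.75-fold) and 1.68 ± 0.11 (3.2-fold), limma adjusted p = 0.00018 and 2.1e-06. Aldh7a1, the next dehydrogenase of the route, fell from 13.4, 13.41 and 13.49 to 13.08, 13.3 and 13.16 in intact females (-0.25 ± 0.067, limma adjusted p = 0.00877), but not under quantile normalization (-0.09, adjusted p = 0.181). With ovariectomy its level was 13.21, 13.26 and 13.33 with vehicle and 13.33, 13.44 and 13.5 with dexamethasone, and the difference of 0.16 ± 0.067 did not pass (adjusted p = 0.0775). Glutaryl-CoA dehydrogenase (Gcdh), shared with the tryptophan route, had differences of -0.12 ± 0.076 and 0.10 ± 0.076 and passed in neither.

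Promoters are shown for Aass, Tat and Got1, 3 of the 13 enzymes that rose in both gonadal states. In each of the 3, bases shortly after the RefSeq start site also occur in the opening part of a GENCODE transcript of that gene. This does not show that the start sites coincide. Others of the 13 with a promoter entry, Acmsd among them, are not shown. RefSeq (GRCm38.p6) held a promoter for 34 of the 45 enzymes, in 36 entries, and that build differs from the mm9 of the deposited table. Each line gives the 250 bases before the start site, 5′ to 3′ on the strand of the gene. Capitals mark a match, on either strand, to the hexamer of the glucocorticoid receptor element (AGAACA), the C/EBP element (TTGCNNAA), the cAMP element (TGACGTCA), its 5-base core (TGACG, which the full element contains) or the GC box (CCCCNCCC). The palindromic glucocorticoid receptor element was searched too.
Aass (chr6:23132987-23133236, minus strand): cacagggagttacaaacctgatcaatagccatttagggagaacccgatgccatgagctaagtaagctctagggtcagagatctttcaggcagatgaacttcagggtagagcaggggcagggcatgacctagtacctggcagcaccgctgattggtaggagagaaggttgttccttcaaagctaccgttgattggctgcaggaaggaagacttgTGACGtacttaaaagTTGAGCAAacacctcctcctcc
Tat (chr8:109990186-109990435, plus strand): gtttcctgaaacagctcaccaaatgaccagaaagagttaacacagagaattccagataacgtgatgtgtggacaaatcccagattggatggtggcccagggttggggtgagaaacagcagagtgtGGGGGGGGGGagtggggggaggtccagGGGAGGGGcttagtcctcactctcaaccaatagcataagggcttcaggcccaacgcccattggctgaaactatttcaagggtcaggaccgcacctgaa
Got1 (chr19:43524606-43524855, minus strand): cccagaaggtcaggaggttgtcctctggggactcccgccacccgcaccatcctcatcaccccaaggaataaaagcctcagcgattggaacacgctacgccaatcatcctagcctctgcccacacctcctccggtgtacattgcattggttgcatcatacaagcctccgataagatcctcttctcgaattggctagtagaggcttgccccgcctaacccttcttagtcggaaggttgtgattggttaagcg
The capitals in Aass are TGACG, 37 to 33 bases before the start, and a C/EBP element on the opposite strand, 22 to 15 bases before it. In Tat they are GC boxes on the opposite strand, and Got1 held no match to any of these motifs. Over the 36 entries of all members, a GC box was found in 41.7%, against 30.8% of all 32851 promoters of the table. TGACG was in 11.1% (all promoters, 17.8%), the C/EBP element in 11.1% (9.56%) and AGAACA in 5.56% (16.1%). Neither the palindromic receptor element, present in 0.387% of all promoters, nor TGACGTCA, present in 1.55%, occurred in a member's 250 bases. These are letter matches in a short window and describe no binding.

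Histidine breakdown changed little. Histidine ammonia-lyase (Hal), which opens the route, was at 13.67, 13.85 and 13.59 (vehicle) and 13.51, 13.73 and 13.69 (dexamethasone) in intact and 13.45, 13.33 and 13.93 (vehicle) and 13.93, 13.96 and 13.97 (dexamethasone) in ovariectomized libraries. The vehicle libraries of ovariectomized females were widely spread, with replicate 3 the highest. Hal rose by 0.38 ± 0.13 in ovariectomized females (limma adjusted p = 0.0333), a call that each omission of a library of that comparison except vehicle replicate 3 ended (adjusted p = 0.0652 to 0.128). Amdhd1, the imidazolonepropionase, went from 12.86, 13.22 and 12.84 to 12.68, 12.75 and 12.46 in intact and from 13.07, 13.07 and 13.24 to 12.67, 12.85 and 12.7 in ovariectomized females, a fall of 0.34 ± 0.11 and of 0.39 ± 0.11 (limma adjusted p = 0.0208 and 0.0142). The fall in intact females was lost without intact vehicle replicate 2 (adjusted p = 0.0779) or intact dexamethasone replicate 3 (0.0795), in a fit of only the libraries compared (0.0536) and under quantile normalization (0.135), and the fall in ovariectomized females without vehicle replicate 3 (0.0566) or dexamethasone replicate 1 (0.0509). Urocanase (Uroc1) and Ftcd, which passes the formimino group to folate, had differences of -0.13 to 0.15 and passed in neither state.

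Proline dehydrogenase (Prodh) was at 13.14, 12.91 and 12.79 (vehicle) and 13.39, 13.43 and 13.11 (dexamethasone) in intact libraries, and at 12.45, 12.54 and 13.11 (vehicle) and 13.43, 13.4 and 13.52 (dexamethasone) in ovariectomized ones. It rose by 0.75 ± 0.15 in ovariectomized females (limma adjusted p = 0.00243). The difference of 0.36 ± 0.15 in intact females did not pass (adjusted p = 0.0662), although it did under several alternatives, among them quantile normalization (0.54, adjusted p = 0.00642) and omission of intact dexamethasone replicate 3 (0.47, 0.0355). Aldh4a1, which completes the conversion of proline to glutamate, fell from 14.08, 14.36 and 14.33 to 13.58, 13.55 and 13.53 in intact females, by 0.70 ± 0.13 (limma adjusted p = 0.000989), the largest fall among the 45. With ovariectomy it was at 13.49, 13.88 and 14.14 (vehicle) and 13.82, 13.75 and 13.87 (dexamethasone), a difference of -0.03 ± 0.13. Of its 50-base words, 30% also occur in other genes, Gm21969 among them, so its counts are uncertain. Ornithine aminotransferase (Oat), which in liver is confined mostly to hepatocytes near the central vein, had differences of -0.14 ± 0.15 and 0.29 ± 0.15 and passed in neither.

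Among the enzymes that handle alanine, aspartate and glutamate, aspartate aminotransferase of the cytosol (Got1) was the one with a large change. Got1 went from 12.94, 13.42 and 13.11 to 14.12, 13.84 and 14.71 in intact females and from 13.35, 13.23 and 13.83 to 14.74, 14.33 and 14.4 in ovariectomized females. The groups did not overlap in either state, and the rises were 1.06 ± 0.22 and 1.02 ± 0.22 (limma adjusted p = 0.00197 and 0.00329). Alanine aminotransferase (Gpt) was at 13.66, 13.95 and 13.68 (vehicle) and 13.83, 13.93 and 13.71 (dexamethasone) in intact and 13.49, 13.41 and 13.85 (vehicle) and 14, 13.93 and 13.95 (dexamethasone) in ovariectomized females. It rose by 0.38 ± 0.11 in ovariectomized females (limma adjusted p = 0.0191), but not without ovariectomized vehicle replicate 1 (adjusted p = 0.0728), vehicle replicate 2 (0.075) or dexamethasone replicate 1 (0.0571).

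Glutamate dehydrogenase (Glud1), which frees ammonia from glutamate, went from 15.04, 14.91 and 14.87 to 14.71, 14.72 and 14.79 in intact females and from 14.83, 14.79 and 14.84 to 15.03, 14.88 and 14.99 in ovariectomized females. It fell by 0.20 ± 0.065 in intact females (limma adjusted p = 0.0245), a call lost without intact vehicle replicate 1 (adjusted p = 0.0994) or intact dexamethasone replicate 1 (0.0789) or 2 (0.0576), in a fit of only the libraries compared (0.069) and after removal of the length and GC trend (0.0534). Under quantile normalization the difference was 0.03 (adjusted p = 0.755), so its direction depends on the scaling. The liver glutaminase (Gls2) had differences of -0.17 ± 0.11 and 0.00 ± 0.11 and did not pass.

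Changes in the route of the branched-chain amino acids were small in size. The E1 subunits of the branched-chain ketoacid dehydrogenase differed: Bckdhb went from 11.48, 11.72 and 11.52 to 12.06, 12.08 and 11.92 in intact and from 11.59, 11.58 and 11.69 to 11.94, 11.92 and 11.92 in ovariectomized females. It rose by 0.45 ± 0.067 and 0.31 ± 0.067 (limma adjusted p = 0.000253 and 0.00363). Bckdha had 0.06 ± 0.066 and 0.07 ± 0.066 and passed in neither state. Isovaleryl-CoA dehydrogenase (Ivd) was at 12.76, 13.03 and 12.86 (vehicle) and 12.76, 12.74 and 12.73 (dexamethasone) in intact females, and went from 12.64, 12.62 and 12.84 to 13.03, 12.89 and 13.01 in ovariectomized females, a rise of 0.28 ± 0.077 (limma adjusted p = 0.0134). That call ended without ovariectomized vehicle replicate 1 (adjusted p = 0.0562) or 2 (0.0503).

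Mccc1 and Mccc2 encode the subunits of methylcrotonyl-CoA carboxylase, the next enzyme of leucine breakdown. Mccc1 was at 11.01, 10.87 and 11.01 (vehicle) and 10.66, 10.81 and 10.68 (dexamethasone) in intact females, and at 10.64, 10.55 and 10.68 (vehicle) and 10.83, 10.91 and 10.93 (dexamethasone) in ovariectomized females. It fell by 0.25 ± 0.059 in the former and rose by 0.27 ± 0.059 in the latter (limma adjusted p = 0.00484 and 0.00398), although the difference in intact females was -0.07 (adjusted p = 0.331) once the trend on length and GC was removed. Mccc2 was at 11.12, 11.1 and 11.08 (vehicle) and 11.03, 11.09 and 11.02 (dexamethasone) in intact females, which did not pass (-0.05 ± 0.047). In ovariectomized females it went from 10.99, 10.93 and 11.04 to 11.1, 11.19 and 11.18, a rise of 0.17 ± 0.047 (limma adjusted p = 0.0126). Hibch, a hydrolase of the valine branch, fell from 11.58, 11.44 and 11.5 to 11.15, 11.22 and 10.97 in intact females (-0.40 ± 0.072, limma adjusted p = 0.000899). Ovariectomized libraries were at 11.36, 11.33 and 11.46 (vehicle) and 11.17, 11.35 and 11.3 (dexamethasone), which did not pass (-0.11 ± 0.072).

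Of the methionine and cysteine enzymes, the first 2 rose in ovariectomized females and none passed in intact females by limma, where 1 of the 4 had an unadjusted p under 0.05 (Gnmt). In intact females Gnmt did pass under quantile normalization (0.42, adjusted p = 0.00568) and with library weights (0.0282). It also passed there without intact vehicle replicate 2 (0.0335) or ovariectomized vehicle replicate 3 (0.0487). Mat1a (Entrez 11720) makes S-adenosylmethionine, the methyl donor of the cell. It was at 17.27, 17.37 and 17.41 (vehicle) and 17.48, 17.46 and 17.57 (dexamethasone) in intact libraries. In ovariectomized females it went from 17.03, 17.03 and 17.24 to 17.99, 17.88 and 17.88, so that this state held both the lowest and the highest libraries. Mat1a rose by 0.81 ± 0.1 in ovariectomized females (1.76-fold, limma adjusted p = 0.000132), and the difference in intact females was 0.15 ± 0.1 (adjusted p = 0.241). Glycine N-methyltransferase (Gnmt), which uses up that methyl donor, was at 15.31, 15.6 and 15.36 (vehicle) and 15.58, 15.81 and 15.65 (dexamethasone) in intact and at 15.3, 15.14 and 15.56 (vehicle) and 15.8, 15.8 and 15.68 (dexamethasone) in ovariectomized females, with a rise of 0.43 ± 0.11 in the latter (limma adjusted p = 0.0109). Cystathionine beta-synthase (Cbs) and cystathionine gamma-lyase (Cth), which carry sulfur from homocysteine to cysteine, had differences of -0.01 to 0.25 and passed in neither state. Without ovariectomized vehicle replicate 3, Cth passed in intact females (0.25, limma adjusted p = 0.0412).

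**Figure D3:**
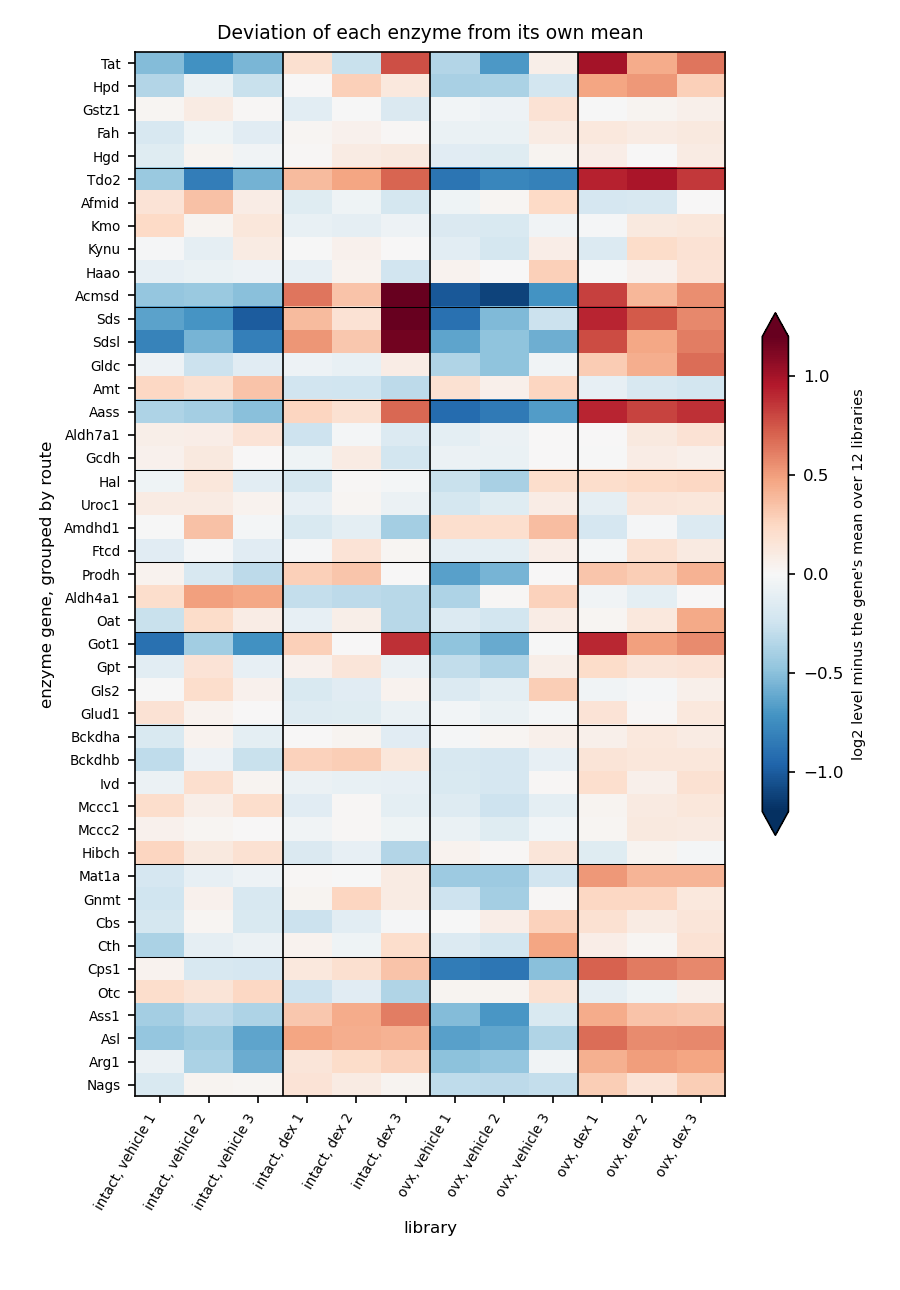
Log2 level of each of the 45 enzymes (y axis, grouped by route) in each of the 12 libraries (x axis; ovx, ovariectomized; dex, dexamethasone), shown as the difference from the enzyme's own mean over the 12 libraries (colour; red higher, blue lower). The third ovariectomized vehicle library is the highest of its group for 43 of the 45 enzymes.

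The difference between the 2 responses was tested as an interaction term, the response in ovariectomized minus that in intact females. It was positive and passed for 14 of the 45 (31.1%, against 15.3% of all genes tested), and was negative and passed for 0 (against 9.65%), by limma. At an unadjusted p under 0.05 the counts were 18 and 0. The median over the 45 was 0.22, and 0.01 over all genes tested. Without replicate 3 of ovariectomized vehicle 18 passed. Under quantile normalization only 5 remained, Gldc, Aass, Mccc1, Cps1 and Nags, the median over the 45 was 0.06, and Fah passed with a negative value (-0.36, adjusted p = 0.0094). Those 5 also passed under every other alternative run.

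By size, the 14 were Cps1 (1.04 ± 0.17, limma adjusted p = 0.00192), Aass (0.87 ± 0.16, 0.00328), Aldh4a1 (0.67 ± 0.18, 0.0208), Mat1a (0.66 ± 0.14, 0.00717), Gldc (0.64 ± 0.16, 0.0157) and Tdo2 (0.61 ± 0.15, 0.0136), followed by Mccc1, Kmo, Ivd, Nags, Aldh7a1, Glud1, Otc and Mccc2 at 0.22 to 0.51. They came from 8 of the 10 routes. The urea cycle and the branched-chain route each gave 3, Cps1, Otc and Nags in the one and Ivd, Mccc1 and Mccc2 in the other. In the cycle, the 3 mitochondrial enzymes Cps1, Otc and Nags passed. For the cytosolic enzymes the values were 0.01 ± 0.16 (Ass1), 0.20 ± 0.12 (Asl) and 0.25 ± 0.2 (Arg1), none of which passed (limma adjusted p = 0.229 to 0.963). Otc (0.34 ± 0.1) lay near Arg1, and the mitochondrial and cytosolic enzymes were not tested against each other. For Sds, Sdsl, Tat, Got1 and Acmsd, which rose by 0.83 to 1.54 in each state, the values were -0.21 to 0.24 and did not pass (limma adjusted p = 0.545 to 0.943), with SEs of 0.24 to 0.35. Acmsd did pass without intact dexamethasone replicate 3 (0.57, adjusted p = 0.0428). Otc lost its call without any of 7 libraries and Mccc2 without any of 8 (adjusted p at most 0.0766 and 0.0692), and Glud1 without intact dexamethasone replicate 1 (0.051).

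Some hepatocyte markers moved in the same comparison, which also followed transcript length. Of the 7 hepatocyte markers tested, 3 had a positive interaction that passed, where 15.3% of all genes tested did. They were the apolipoprotein Apob (0.64 ± 0.12), the fibrinogen chain Fgb (0.62 ± 0.17) and the cytochrome Cyp2e1 (0.66 ± 0.2). Ttr (-0.30 ± 0.2), Serpina1a (-0.13 ± 0.12) and Apoa1 (-0.06 ± 0.19) had negative values that did not pass. The median of the 7 was 0.40, the value of albumin (Alb, 0.40 ± 0.42), which did not pass. Their summed level, which albumin dominates, was 22.21 to 22.34 in intact vehicle, 22.04 to 22.12 in intact dexamethasone, 22.06 to 22.18 in ovariectomized vehicle and 22.18 to 22.38 in ovariectomized dexamethasone libraries. Across 12425 genes the interaction followed transcript length (Spearman's rho 0.31), as did the difference of ovariectomized from intact under vehicle (-0.374) and the response in intact females (-0.245). After removal of the trend on length and GC content, 14 members passed, with Hpd gained (adjusted p = 0.0231) and Otc lost (0.0767), and the median over the 45 was 0.29. Markers of other liver cells moved too. The interaction was negative and passed for 1 of 5 Kupffer cell, 2 of 6 sinusoidal endothelial and 2 of 5 cholangiocyte markers, against 9.65% of all genes tested. It was positive and passed for none of these, and passed in neither direction for any of 6 stellate cell and 5 lymphocyte markers. With dexamethasone in intact females, 3 of the 6 stellate cell and 3 of the 6 endothelial markers rose, and 1 endothelial and 3 of the 5 lymphocyte markers fell. There 1 cholangiocyte marker rose and 1 Kupffer cell marker fell, as did Apob (-0.63 ± 0.086), while Apoa1 rose (0.70 ± 0.13). In ovariectomized females 1 stellate cell and 2 endothelial markers rose, as did Apoa1 (0.64 ± 0.13) and Fgb (0.44 ± 0.12). In that state 3 lymphocyte, 2 endothelial, 2 cholangiocyte and 1 Kupffer cell markers fell. Of all genes tested, 22.8% rose and 25.9% fell in intact females, and 21.3% and 19.4% in ovariectomized females. The part of these cell types and of transcript length in the members' result was not tested.

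Between gonadal states, few of the enzymes passed. Those under vehicle were lower in ovariectomized females and those under dexamethasone higher, and only Aass and Cps1 were in both sets. The share lower under vehicle was near that of all genes tested, and no call under dexamethasone held under every alternative run. Under vehicle, 6 of 45 were lower in ovariectomized than in intact females (13.3%, against 15.5% of all genes tested) and 0 higher (against 12.4%), by limma. At an unadjusted p under 0.05 there were 10 and 2. The 6 were Cps1 (-0.62 ± 0.12, limma adjusted p = 0.00383), Aldh4a1 (-0.42 ± 0.13, 0.0316), Aass (-0.39 ± 0.11, 0.026), Mccc1 (-0.34 ± 0.059, 0.00222), Kmo (-0.27 ± 0.064, 0.0103) and Nags (-0.26 ± 0.065, 0.0121). Only Cps1 passed under every alternative run. Aass and Aldh4a1 lost their calls without any of 4 libraries each (adjusted p = 0.0535 to 0.0962), and Nags without intact vehicle replicate 3 (0.0502). After removal of the length and GC trend 4 were lower and 1 higher, and Kmo (adjusted p = 0.0528), Aass (0.0726) and Mccc1 (0.0719) had lost their calls, while under quantile normalization 5 were lower and 3 higher. Without replicate 3 of ovariectomized vehicle 11 were lower. In the same comparison the hepatocyte markers Apob (-0.41 ± 0.086) and Fgb (-0.41 ± 0.12) were lower, Ttr was higher (0.42 ± 0.14), and 4 of 5 Kupffer cell and macrophage markers were lower (median -0.39). Their part in the result was not tested.

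Under dexamethasone, 7 of 45 were higher in ovariectomized than in intact females (15.6%, against 7.74% of all genes tested) and 0 lower (against 5.08%), by limma, with 17 and 0 at an unadjusted p under 0.05. They were Gldc (0.49 ± 0.12), Aass (0.49 ± 0.11), Cps1 (0.42 ± 0.12), Mat1a (0.41 ± 0.1), Tdo2 (0.40 ± 0.11), Aldh7a1 (0.25 ± 0.067) and Glud1 (0.23 ± 0.065), with limma adjusted p = 0.0231 to 0.0433. This count was not stable. It was 0 without intact dexamethasone replicate 1 or ovariectomized dexamethasone replicate 3, 2 without ovariectomized dexamethasone replicate 1, 3 without intact or ovariectomized dexamethasone replicate 2, and 4 without ovariectomized vehicle replicate 1. Without replicate 3 of ovariectomized vehicle it was 9. It was 0 under quantile normalization and 4 with libraries recentred to the same median. That recentring also moved the share of higher genes among all genes called from 60.4% to 48.2%. Aass and Cps1 passed in both gonadal comparisons, lower under vehicle and higher under dexamethasone, but under dexamethasone Cps1 lost its call in 12 of the alternatives run (with the replicate block, adjusted p = 0.0544) and Aass in 6. Under dexamethasone 4 of 5 Kupffer cell and macrophage markers were again lower (median -0.35) and no hepatocyte marker passed by limma, and their part in the result was not tested.

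**Figure D4:**
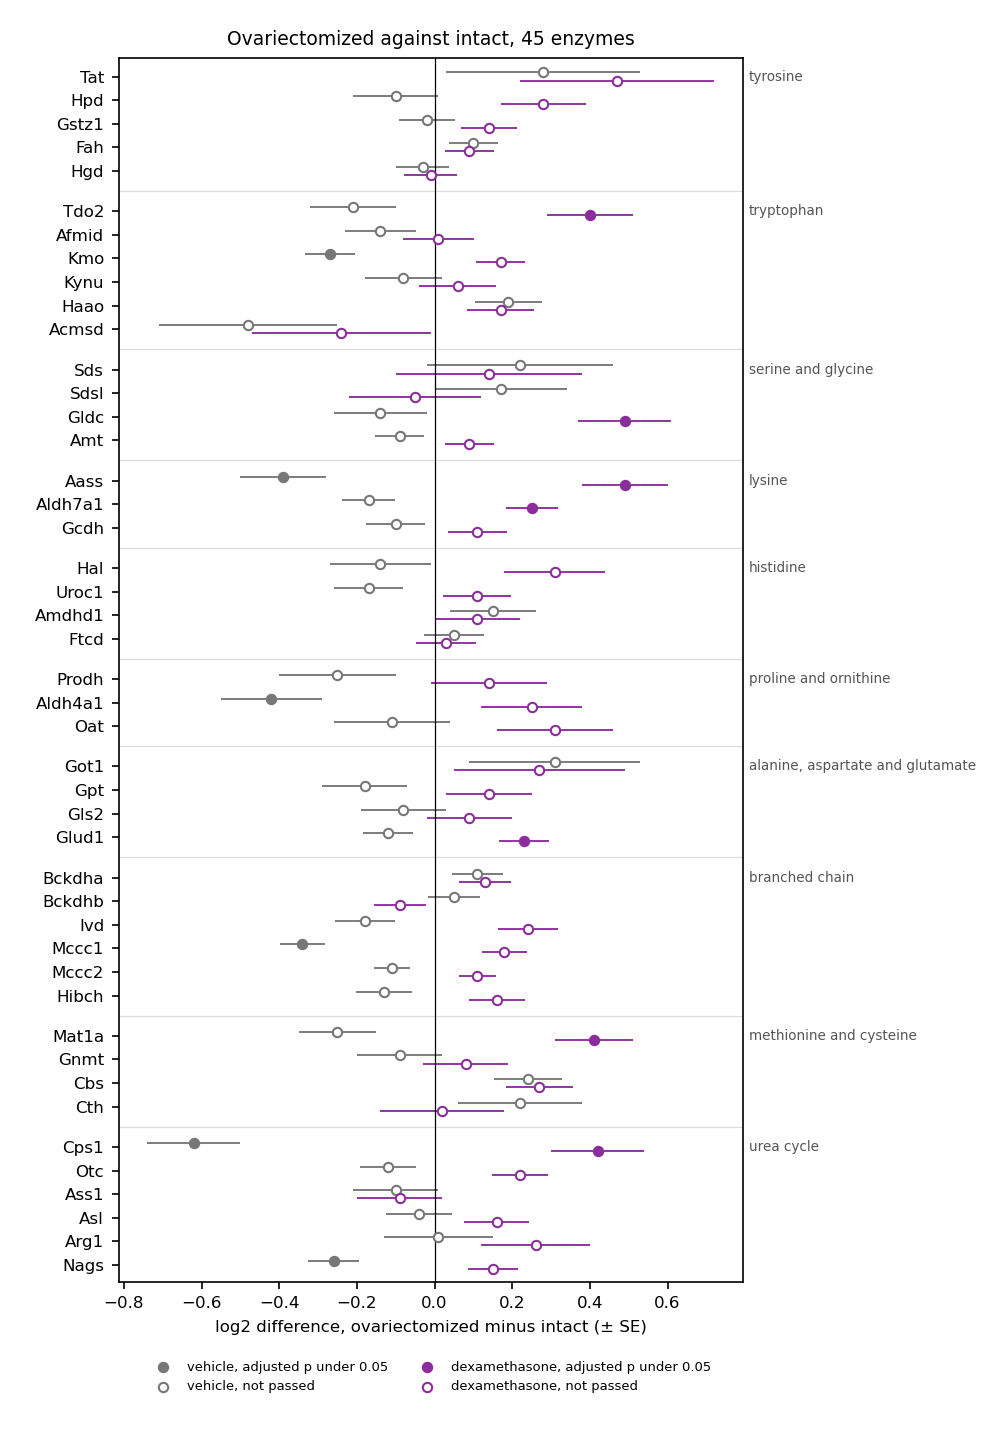
Log2 difference between ovariectomized and intact libraries (x axis, ± SE from limma) for each of the 45 enzymes (y axis, grouped by route), under vehicle (grey) and under dexamethasone (purple). Filled points passed at adjusted p under 0.05, 6 lower under vehicle and 7 higher under dexamethasone.

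Other genes of the same routes were taken from lists of further enzymes, transporters and regulators. Of 48 further enzymes tested, dexamethasone raised 8 (16.7%, against 22.8% of all genes tested) and lowered 21 (43.8%, against 25.9%) in intact females. In ovariectomized females 17 rose (35.4%, against 21.3%) and 6 fell (12.5%, against 19.4%), with medians of -0.13 in intact and 0.09 in ovariectomized females. The interaction was positive and passed for 16 of them (33.3%, against 15.3%) and negative for 2 (4.17%, against 9.65%), with a median of 0.22. Bhmt, which remethylates homocysteine from betaine, rose by 1.22 ± 0.24 and 1.37 ± 0.24 (limma adjusted p = 0.00142 and 0.000958). Cysteine dioxygenase (Cdo1) rose by 0.77 ± 0.088 and 0.80 ± 0.088 (limma adjusted p = 4.77e-05 and 6.02e-05). The mitochondrial alanine aminotransferase Gpt2 rose by 0.48 ± 0.089 and 1.08 ± 0.089, with an interaction of 0.61 ± 0.13 that passed (limma adjusted p = 0.006). Ppm1k, the phosphatase that activates the branched-chain ketoacid dehydrogenase, fell by 0.84 ± 0.16 and 0.51 ± 0.16 (limma adjusted p = 0.00137 and 0.0263).

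Of 23 amino acid transporter genes tested, 4 rose (17.4%, against 22.8% of all genes tested) and 8 fell (34.8%, against 25.9%) in intact females. In ovariectomized females 6 rose and 6 fell (26.1% each, against 21.3% and 19.4%). The interaction was positive and passed for 7 of the 23 (30.4%, against 15.3%) and negative for 1 (4.35%, against 9.65%). Slc25a15, the carrier that brings ornithine into the mitochondrion for the urea cycle, went from 13.36, 13.32 and 13.41 to 14.32, 14.21 and 14.68 in intact and from 13.39, 13.27 and 13.65 to 14.71, 14.5 and 14.47 in ovariectomized females. It rose by 1.04 ± 0.12 and 1.12 ± 0.12 (limma adjusted p = 5.64e-05 and 5.47e-05). Its interaction of 0.08 ± 0.17 did not pass (limma adjusted p = 0.751). Slc43a1, a carrier of large neutral amino acids, rose by 0.91 ± 0.13 and 1.94 ± 0.13, and its interaction of 1.04 ± 0.18 passed (limma adjusted p = 0.00249). Its level under vehicle was lower in ovariectomized than in intact females (-0.94 ± 0.13, limma adjusted p = 0.000662). Under dexamethasone that difference did not pass (0.10 ± 0.13). The glutamine carriers went apart: Slc1a5 rose by 1.14 ± 0.14 and 0.56 ± 0.14 and Slc38a3 fell by 0.80 ± 0.11 and 0.66 ± 0.11. The interaction of Slc1a5 was negative and passed (-0.57 ± 0.19, limma adjusted p = 0.0495), and that of Slc38a3 did not pass (0.14 ± 0.16). The taurine carrier gene Slc6a6 fell by 1.15 ± 0.073 and 0.59 ± 0.073, with a positive interaction of 0.56 ± 0.1 (limma adjusted p = 0.00336). Slc6a6 too was lower in ovariectomized females under vehicle (-0.55 ± 0.073, limma adjusted p = 0.00062), and did not pass under dexamethasone (0.01 ± 0.073). The arginine and lysine carrier gene Slc7a2 had -0.10 ± 0.16 and -0.04 ± 0.16 and passed in neither state.

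Of 16 transcriptional and hormonal regulators, 3 rose (18.8%, against 22.8% of all genes tested) and 4 fell (25%, against 25.9%) in intact females. In ovariectomized females 7 rose (43.8%, against 21.3%) and 3 fell (18.8%, against 19.4%). The interaction was positive and passed for 7 of the 16 (43.8%, against 15.3%) and negative for 1 (6.25%, against 9.65%). Klf15, a factor known to drive amino acid breakdown in fasting, had -0.07 ± 0.1 in intact and 0.26 ± 0.1 in ovariectomized females and passed in neither (limma adjusted p = 0.601 and 0.0587). Cebpd, a C/EBP family factor, rose by 1.05 ± 0.22 and 1.24 ± 0.22, and its relative Cebpb by 0.39 ± 0.14 in ovariectomized females (limma adjusted p = 0.0498). The hepatocyte factor Onecut1 rose by 1.42 ± 0.33 in ovariectomized females, with an interaction of 1.64 ± 0.47 (limma adjusted p = 0.0255). The insulin receptor substrate gene Irs2 fell by 1.29 ± 0.2 and 1.11 ± 0.2. Foxo3 fell by 0.88 ± 0.12 in intact females, with an interaction of 0.86 ± 0.17 (limma adjusted p = 0.00448). Under vehicle Foxo3 was lower in ovariectomized than in intact females (-0.57 ± 0.12, limma adjusted p = 0.00516), and under dexamethasone the difference did not pass (0.29 ± 0.12). Nr3c1, the glucocorticoid receptor gene, was at 11.44, 11.35 and 11.35 in intact vehicle and 10.74, 10.83 and 10.85 in intact dexamethasone libraries, and at 10.95, 10.93 and 10.96 (vehicle) and 10.91, 10.83 and 11 (dexamethasone) in ovariectomized ones. Its interaction of 0.54 ± 0.077 passed (limma adjusted p = 0.00101), with a fall in intact females and no call in ovariectomized females. Under vehicle Nr3c1 was already lower in ovariectomized than in intact females (-0.43 ± 0.054, limma adjusted p = 0.000464). Under dexamethasone that difference did not pass (0.11 ± 0.054, limma adjusted p = 0.208).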

How the data were processed

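Liver RNA was sequenced on an Illumina NextSeq instrument from TruSeq libraries, 12 in all (labels' protocols). Per the submitters' processing notes, the tools were HTSeq, TopHat2, Trim Galore, DESeq2 and DESeq, on the mouse build mm9. For versions and gene annotation, nothing is stated there. Per the labels, the values deposited by the authors are log2 normalized expression made from HTSeq counts, with the exact transformation not given. Values ran from -2.22 to 22.03, and 6294 of 24962 entries were listed at 0 in every library. Depth cannot be recovered from them, so no counting interval is given. Counting is not stated to use strand, so overlapping and antisense genes cannot be told apart.

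For 392 symbols with several entries the one with the highest mean was kept. The 12965 genes with a mean of at least 4 were fitted in limma 3.58.1 under R 4.3.3 (4 groups together, prior variance following the mean level, residual degrees of freedom 8), with Benjamini-Hochberg adjustment over all of them for each of 5 comparisons. The fit was tested on simulated data. The enzymes, the other gene lists, the tests and the alternatives were chosen with earlier results of these data known.

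Values in every library are given for up to 2 enzymes per route with the largest change that passed with dexamethasone, for those that passed in the difference between responses, for up to 6 that passed between gonadal states, and for Tat, Tdo2 and the urea cycle. Of each other list, up to 3 passing genes per dexamethasone comparison and 5 fixed genes were named. Transcript length, GC content and shared 50-base words came from GENCODE M21 transcripts, matched by symbol for 95.8% of genes tested. Promoters came from RefSeq, and 1 promoter sequence is not reported here.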

Additional observations from a re-analysis of the deposited data

Results flagged for a closer look

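For 14 enzymes the response to dexamethasone differed between ovariectomized and intact females by the interaction term (limma, Benjamini-Hochberg adjusted p under 0.05), and in each the response was more positive in ovariectomized females. In order of route they were Tdo2 (0.61 ± 0.15), Kmo (0.44 ± 0.091), Gldc (0.64 ± 0.16), Aass (0.87 ± 0.16), Aldh7a1 (0.41 ± 0.095), Aldh4a1 (0.67 ± 0.18) and Glud1 (0.35 ± 0.092). The others were Ivd (0.42 ± 0.11), Mccc1 (0.51 ± 0.083), Mccc2 (0.22 ± 0.067), Mat1a (0.66 ± 0.14), Cps1 (1.04 ± 0.17), Otc (0.34 ± 0.1) and Nags (0.41 ± 0.091).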

How the results depend on the processing

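Alternatives covered the filter (none, with constant genes left out, or a stricter mean of 6), a linear pseudocount of 8, the scaling (recentred medians or quantile normalization), the variance model (no trend, robust, or library weights), a fit of only the libraries compared, a replicate block, symbol means, and omission of each library. Removing each library's trend on length and GC, with splines of 4 degrees of freedom, was chosen after seeing the data. Quantile normalization gave 6 falls in intact and 4 in ovariectomized females (10 and 2 in the analysis above), 3 enzymes higher with ovariectomy under vehicle (0), 0 higher under dexamethasone (7), and 5 positive and 1 negative differences between responses (14 and 0). Library weights gave 2 higher and 15 lower under vehicle (0 and 6), 21 higher and 1 lower under dexamethasone (7 and 0), and 23 positive and 1 negative differences between responses. Under dexamethasone the 7 became 2 with no filter, 4 recentred and 2 with only the libraries compared. Without the length and GC trend 1 was higher under vehicle. Quantile normalization reversed Glud1: 0.03 for the response in intact females, -0.03 between gonadal states under dexamethasone and -0.03 for the difference between responses.

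Leaving out each library gave 12 to 17 rises and 8 to 10 falls in intact females, 20 to 27 and 1 to 2 in ovariectomized females, 0 to 2 higher and 4 to 11 lower under vehicle, 0 to 9 higher under dexamethasone, and 11 to 18 positive differences between responses. The percent of all genes called moved by over 1.5 times: from 27.9% under vehicle to 17.1% without intact vehicle replicate 1, 18.3% with no filter and 45.7% with library weights, from 12.8% under dexamethasone to 4.64% with only the libraries compared, 44.6% with library weights and 1.6% to 14.3% with a library left out, and from 24.9% for the difference between responses to 16% with no filter and 51.4% with library weights. Under dexamethasone 2 more settings did so. No filter gave 3.96% higher and 2.46% lower, and quantile normalization 3.09% and 2.84%, from 7.74% and 5.08%.

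The labels do not say that a replicate number marks a shared animal or day. Deviations of same-numbered libraries had correlations of -0.23 to 0.4, over 0.1 in 6 of 18 pairs, and 6 of 12 libraries correlated best with their own number. With the replicate block 13 rose and 10 fell in intact females, 24 and 2 in ovariectomized females, 6 were lower under vehicle, 5 higher under dexamethasone and 14 differed between responses. The depth of each library is unknown, which leaves the counting error of each value unknown.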

Other observations

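Tat, Acmsd, Sds, Sdsl and Got1, which rose in both states, also shared an order of libraries, which was noticed after their values were seen. In intact females given dexamethasone, replicate 3 was the highest and replicate 2 the lowest for Tat (16.37 and 15.33), Acmsd (10.3 and 9.15), Sds (14.88 and 13.81), Sdsl (10.56 and 9.73) and Got1 (14.71 and 13.84). In ovariectomized females given dexamethasone, replicate 1 was the highest for each (16.6, 9.62, 14.55, 10.19 and 14.74). Of the urea cycle genes, Cps1, Ass1 and Arg1 were also highest in replicate 3 of intact dexamethasone (17.44, 13.43 and 15.84), whereas Asl, Otc and Nags were lowest there (15.2, 13.66 and 11.4). Over all 45 enzymes, replicate 3 of intact dexamethasone was the highest of its group for 18 (40%, against 39.8% of all genes tested) and the lowest for 19 (42.2%, against 38.6%), so the members as a whole lay near the background.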
